A study of Homo sapiens with 2 samples.

Results

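Close runs of peaks from a pulldown of HA-tagged ETV6 were described in Reh. This established pre-B leukaemia cell line is positive for t(12;21), the translocation that fuses ETV6 to RUNX1. Whether the peaks are sites of ETV6 binding was not tested. A run was a chain of 5 or more peaks whose neighbouring summits lay at most 1000 bp apart. Peaks came from the hg19 list of the anti-HA pulldown, on the 21 autosomes other than chromosome 21. The rule found 608 runs holding 4943 peaks. The same chromosomes held 302386 peaks in all, of which 1.63% were thus in runs, and 220040 single peaks, with no other summit within 1000 bp. The whole list held 315787 peaks. The members were chosen by the positions of listed summits, so their closeness is a property of the rule and not a result.

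ETV6 is a transcription factor of the ETS family, whose DNA-binding domain recognises a GGAA core. It acts mainly as a repressor and recruits corepressor complexes with histone deacetylases. Through its pointed domain the protein binds itself, head to tail, and can form polymers, and in the bone marrow it is needed to sustain blood stem cells and platelet formation. Sites of ETS factors can lie alone or in groups along a stretch of DNA.

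Both arms were Reh cells transduced with a pCCL virus for ETV6, with 200 ng of virus and 8 µg/mL of polybrene, and cultured for 2 weeks. In the test arm, pCCL ETV6-HA, the protein carried an HA tag. In the control arm, pCCL ETV6, it did not, and both arms went through the same pulldown on anti-HA magnetic beads. The vector thus supplied ETV6 in both arms, and each arm is titled as a pool, while the series text speaks of triplicates. With 1 peak list from the tagged pool, no spread between replicates could be measured, no test was made, and all comparisons below are descriptions of peaks within this list.

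The height of a peak is given as its pileup, the number of reads stacked at the summit, solved from the deposited fold and p-value. Depth entered in this form only. The lowest pileup in the list was 12 reads, and library totals were not used. The lowest −log10 q in the list was 1.01, so the list reached down to a q threshold of 0.1. Fold is the authors' linear ratio of the summit to its local background. The background at a peak is the peak caller's estimate of the reads to be found there without binding. In 96.4% of the autosomal peaks it took the same lowest value, 4.29 reads, here called the shared background. At that value each further read adds 0.189 to the fold. A background above it, here called raised, is read as more control reads nearby, on the assumption that the untagged pool was the control. Intervals are exact Clopper-Pearson 95% intervals over peaks, or over runs where runs are counted. They cover counting error only and are too narrow for peaks of runs, since peaks of 1 run share their surroundings. The same holds for counts of runs, since many runs lie close together.

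Most runs were short. Exactly 5 peaks made up 266 of the 608 runs (43.8%), and the median run had 6 peaks. At least 10 peaks were reached by 130 runs and at least 20 by 27 runs, and the longest run had 58. Just outside the limit lay 1045 chains of 4 peaks, beside 4917 chains of 3 and 29236 pairs. The number of chains thus fell from 1045 to 266 between 4 and 5 peaks, while sizes above 10 each held at most 16 chains. The span of a run, from the start of its first peak to the end of its last, had a median of 2937 bp (quartiles 2302 and 4248, range 1002 to 31853). Together the runs spanned 2.39 Mb. Called peaks covered a median of 34.3% of a run's span (range 12.2 to 84.2). Runs were therefore mostly rows of separate narrow peaks with uncovered DNA between them.

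**Figure D1:**
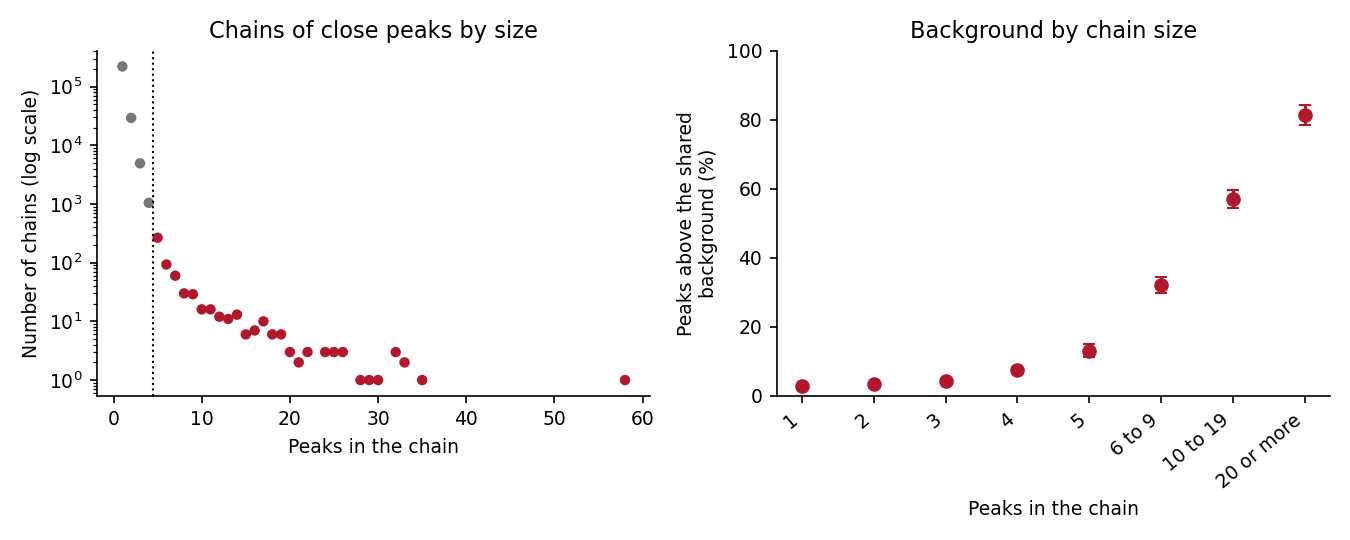
Left, the number of chains (log scale) against the number of peaks in the chain, with the limit of 5 peaks as a dotted line and runs in red. Right, the percent of peaks above the shared background by chain size, with exact 95% intervals over peaks; it lies at 2.73% for single peaks and 81.5% for runs of 20 or more.

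Background set runs apart from single peaks. Of the 4943 peaks in runs, 2045 (41.4%, 39.99 to 42.8) had a raised background. Over all peaks of these chromosomes the share was 3.64%, and among single peaks it was 2.73% (2.67 to 2.80). The share climbed with the size of the chain. It was 3.36% in pairs, 4.39% in chains of 3, 7.58% in chains of 4 and 13.01% (11.2 to 14.9) in runs of 5. In runs of 6 to 9 peaks it was 32.0% (29.7 to 34.5), in runs of 10 to 19 it was 57.1% (54.5 to 59.7), and in runs of 20 or more it was 81.5% (78.5 to 84.2). The median background in runs of 20 or more was 5.72 reads. The difference from single peaks was also present at equal height. Among peaks of exactly 16 reads, 155 of 464 in runs had a raised background (33.4%, 29.1 to 37.9), against 755 of 20388 single peaks (3.70%, 3.45 to 3.97). At 20 reads it was raised in 131 of 221 run peaks (59.3%, 52.5 to 65.8) and 80 of 1238 single peaks (6.46%, 5.16 to 7.98).

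By run, 245 had all their peaks at the shared background, 67 had none there, and 296 were mixed. The 245 runs at the shared background were short. Of these, 174 had 5 peaks, the longest had 12, and the median pileup over their peaks was 14 reads (quartiles 13 and 15), the same as over single peaks. The 67 runs with every peak raised had a median of 10 peaks and a median pileup of 25 reads (quartiles 20 and 31) over 867 peaks. A raised background asks for more reads before a peak is listed, so part of this height is fixed by the calling.

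In the median, peaks in runs were taller than single peaks, and more so in longer runs. The tallest peak on these chromosomes was single, with 8853 reads, against at most 2037 reads in runs. The median pileup was 14 reads over single peaks (quartiles 13 and 15), 14 in runs of 5 (13 and 16), 16 in runs of 6 to 9 (14 and 19), 18 in runs of 10 to 19 (15 and 22.5) and 21 in runs of 20 or more (17 and 27). At least 20 reads were reached by 1487 peaks in runs (30.1%, 28.8 to 31.4), where the share over all peaks was 2.26% and over single peaks 1.68%. At least 25 reads were reached by 709 (14.3%), with 0.769% over all peaks. Among peaks at the shared background the same order held with smaller steps at the limit of 20 reads, but not at all greater heights. There the share with at least 20 reads was 1.61% for single peaks, 3.98% (2.93 to 5.27) in runs of 5, 10.5% in runs of 6 to 9, 20% (16.9 to 23.4) in runs of 10 to 19 and 20.6% (14.1 to 28.4) in runs of 20 or more. The last 2 values lay within each other's intervals. With at least 31 reads, the share at the shared background was 0.288% for single peaks and lower in each class of runs, at most 0.173%.

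**Figure D2:**
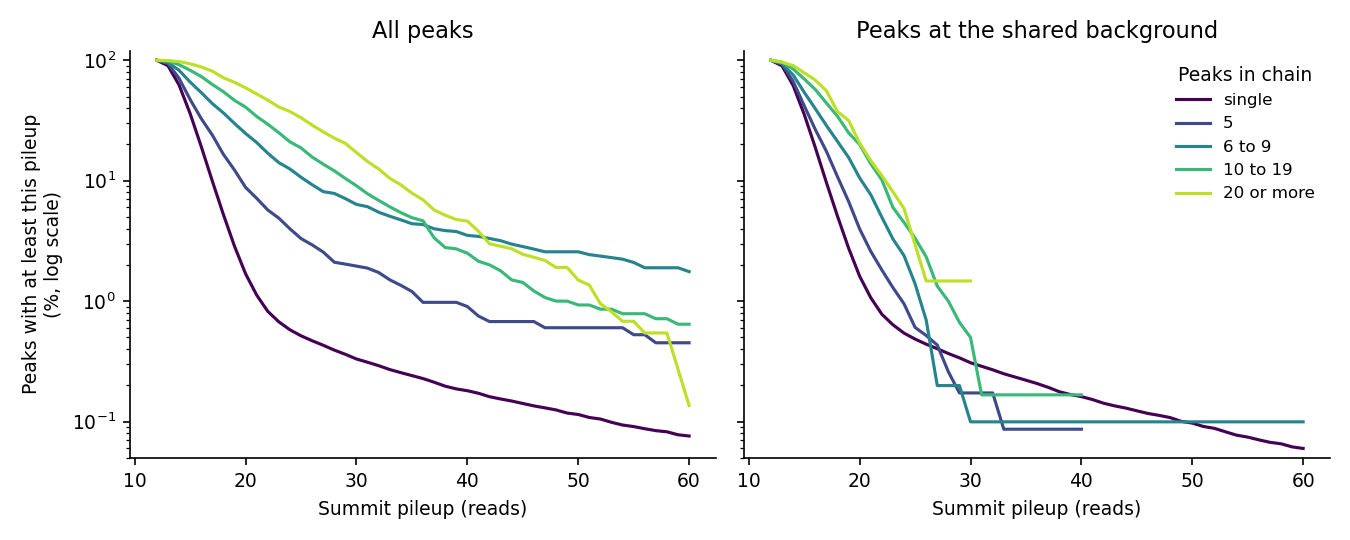
Percent of peaks (log scale) with at least the summit pileup on the horizontal axis, in reads, for single peaks and for runs by size; left all peaks, right those at the shared background. At 20 reads the curves at the shared background run from 1.61% for single peaks to 20.6% for runs of 20 or more, and at 30 reads the curves of runs of 5 and of 6 to 9 lie below that of single peaks.

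Fold differed less than height. Single peaks had a median fold of 2.84, peaks in runs 3.03 and those in runs of 20 or more 3.22, beside the median pileups of 14, 16 and 21 reads. For peaks with a raised background the median fold was 3.09 in runs and 2.63 among single peaks. The increase of height with size was thus accompanied by an increase of background, and the fold of long runs stayed 0.38 above that of single peaks. Width followed height. Median width was 97 bp over single peaks, 111 bp in runs of 5 and 208 bp in runs of 20 or more. Compared at equal height and at the shared background, run peaks of 14 reads were 99 bp wide in the median and single peaks 94 bp. At 16 reads the widths were 143 bp (quartiles 116 and 180, n = 309) and 131 bp (110 and 157, n = 19633). At 20 reads they were 246.5 bp (176.5 and 364, n = 90) and 178 bp (156 and 216, n = 1158). At 22 reads they were 274.5 bp (n = 52) and 194 bp (n = 305), and at 24 reads 262 bp (n = 25) and 208 bp (n = 126). At 13 reads the widths were 79 bp (n = 565) and 77 bp (n = 59928). Run peaks were thus wider in the median at each of these heights, and the gap was smallest at 13 reads.

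The share of peaks in runs depended on both height and background. Over all peaks at the shared background, 0.995% were in runs and 73.4% were single. With at least 25 reads there were 1336 such peaks, of which 45 (3.37%, 2.47 to 4.48) were in runs and 1036 (77.5%, 75.2 to 79.8) were single, so both shares were above those over all peaks. Among the height classes, the share in runs was highest at 20 to 24 reads, 7.02% (255 of 3633), then fell to 4.65% at 25 to 39 reads (42 of 903) and 0.494% at 40 to 99 reads (2 of 405). Of the 28 with at least 100 reads, 1 was in a run. Over all peaks with a raised background, 18.6% were in runs and 54.7% were single. Of the 988 with at least 25 reads, 664 (67.2%, 64.2 to 70.1) were in runs and 98 (9.92%) were single. The runs held 534 of 715 (74.7%) at 25 to 39 reads and 113 of 205 (55.1%) at 40 to 99 reads. With at least 100 reads they held 17 of 68 (25%, 15.3 to 37), and 27 (39.7%) were single. At both backgrounds the share in runs was thus lower above 40 reads than at its maximum.

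Within a run, heights mostly differed by few reads. No other groups of peaks were compared, and single peaks also had quartiles of 13 and 15 reads. Evenness is therefore not shown to be particular to runs. The tallest peak had a median of 1.27 times the run's median pileup (quartiles 1.14 and 1.46), and the difference between its tallest and lowest peak had a median of 7 reads (quartiles 4 and 12). In 128 runs that difference was at most 3 reads. The median ratio of the tallest peak to the run's median was 1.15 in runs wholly at the shared background. It was 1.36 in mixed runs and 1.59 in runs with every peak raised. The 2 end peaks of a run were lower than the inner ones when all runs were pooled, with medians of 15 and 17 reads, but sizes were mixed in that comparison. In runs of 5 both medians were 14 reads, in runs of 6 to 9 both were 16, and in runs of 10 or more the ends had 20 and the inner peaks 19. Ends in runs of 10 or more had a raised background in 58.8% (52.6 to 64.9) of cases and inner peaks in 66.4% (64.2 to 68.6). Of 490 runs with 1 tallest peak, 163 (33.3%) had it at an end. The share that position alone would give was not computed, so this value cannot be read as high or low. Within these classes of size, the ends thus differed from the inner peaks by at most 1 read in the median. The 2 classes above 5 peaks still mix sizes, and longer runs give more inner peaks for the same 2 ends. Their raised shares were therefore not compared at equal size.

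Only 25 runs had a tallest peak of at least 2 times the median pileup. In 23 of these the tallest peak had a raised background. The tallest peak of any run had 2037 reads over a background of 316.4 reads, in the run of 9 peaks at chr16:46388319-46393132. Its other peaks had 79 to 418 reads, all with backgrounds of at least 33.3 reads, and its largest fold was 7.2. The run of 6 at chr16:46402007-46405169 reached 993 reads and that of 10 at chr10:42383510-42388386 reached 826 reads, with a fold of 12.9. All of their peaks had raised backgrounds.

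The other 2 uneven runs had their tallest peak at the shared background, and the run on chromosome 16 held the largest fold in any run. The run at chr16:1295445-1298435 had 7 peaks. Along the chromosome their pileups were 21, 14, 14, 150, 18, 31 and 21 reads, so that 1 peak stood far above low neighbours on both sides. The tall peak, chr16:1296817-1297409, had a fold of 28.6 and a width of 593 bp. The next summit lay 916 bp beyond it. The run at chr1:156066744-156068983 had 5 peaks, all at the shared background, with 40, 14, 13, 15 and 13 reads. Here the tall peak, with a fold of 7.76, came first in the row. A run of 16 peaks at chr1:16886182-16894191 also held a peak of 40 reads at the shared background, but its tallest peak, of 69 reads, had a raised background.

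**Figure D3:**
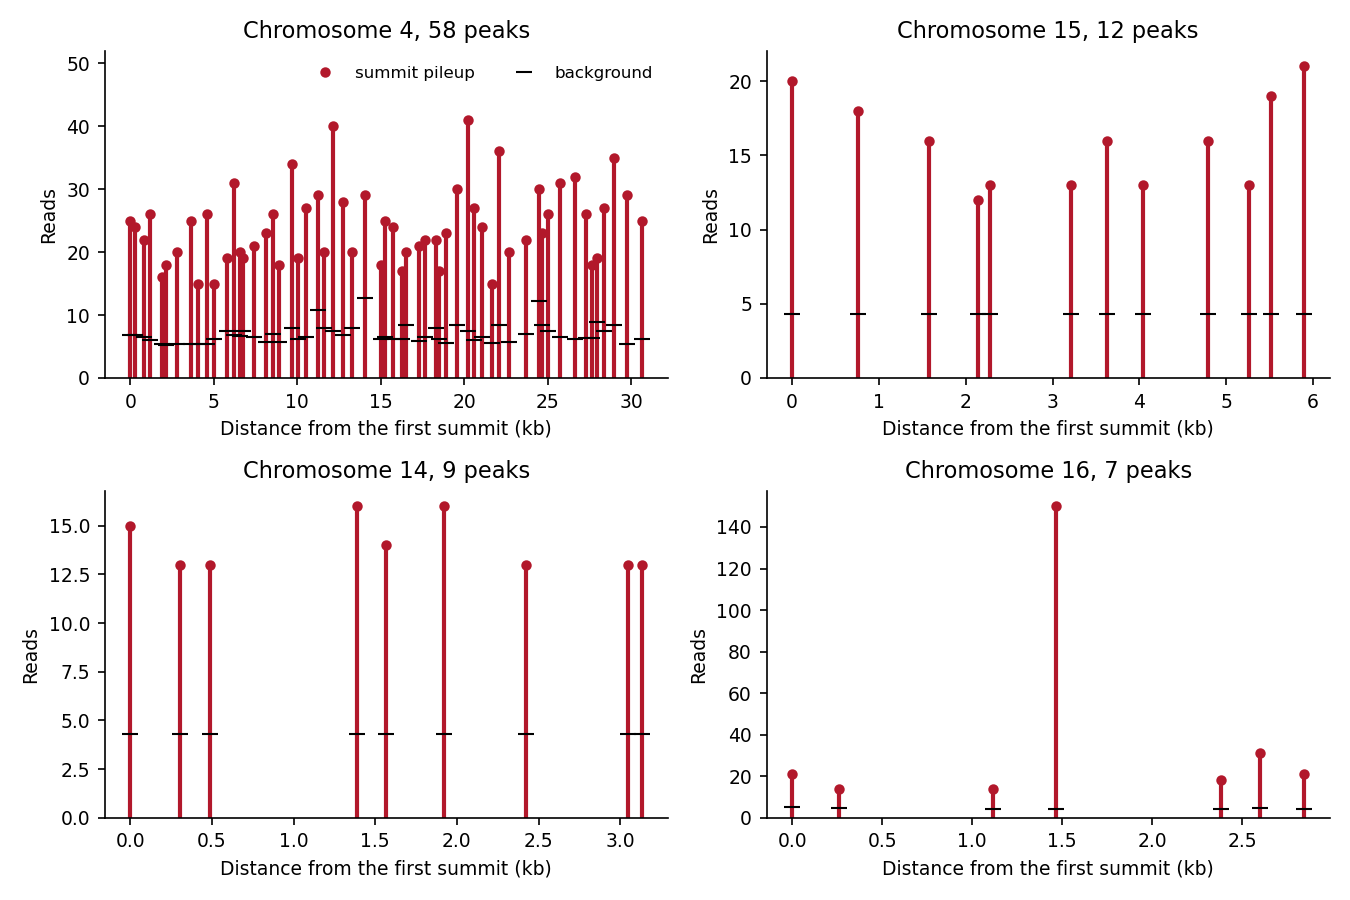
Summit pileup (red) and background (black dashes) in reads for each peak of 4 runs, against the distance in kb from the first summit. The chromosome 4 run has 58 peaks of 15 to 41 reads, all above the shared background; the runs of 12 and 9 peaks on chromosomes 15 and 14 lie wholly at the shared background; the chromosome 16 run holds 1 peak of 150 reads among peaks of 14 to 31.

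The longest run by number of peaks and by span was at chr4:190480317-190512169. Its 58 peaks lay over 31853 bp, had 15 to 41 reads with a median of 23.5, and all had a raised background, with a median of 6.58 reads. Their median fold was 3.18 and the largest was 4.93. Neighbouring summits were 151 to 970 bp apart, with a median of 506 bp, and peaks covered 54.3% of the span. Further runs of 28, 32 and 26 peaks followed at chr4:190513108-190527581, chr4:190538642-190554483 and chr4:190663745-190675251, all with every peak raised. At the other end of the chromosome, chr4:35765-54125 held 35 peaks with 14 to 84 reads and a median of 24, of which 30 were raised.

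Other long runs also held many peaks of moderate height, but the part of their peaks with a raised background differed. Chromosome 3 held 33 peaks at chr3:195420477-195437160, with a median of 21 reads and 27 peaks raised. On chromosome 2, runs of 33, 30 and 25 peaks lay one after the other between 91761738 and 91805054, with medians of 26, 27.5 and 29 reads and no peak at the shared background. The run of 32 at chr1:145005471-145022664 had a median of 23.5 reads, likewise with all peaks raised. The run of 32 at chr16:70893777-70909450 had a lower median, 19 reads, with 21 peaks raised. On chromosome 7, 26 peaks at chr7:152099789-152113420 had a median of 26 reads, and no other run lay in that 1 Mb bin. Chromosome 10 held long runs that were lower still. The 29 peaks at chr10:47124518-47138822 had a median of 17 reads, with 16 raised. The 26 peaks at chr10:46972068-46983587 also had a median of 17 reads, with only 9 raised. The largest fold in these long runs was 10.9, in the run at the start of chromosome 4, and in the others named here it did not pass 6.56.

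Among runs wholly at the shared background, the one with most peaks was at chr15:20500878-20506933. Its 12 pileups were 20, 18, 16, 12, 13, 13, 16, 13, 16, 13, 19 and 21 reads, highest at both ends. The 9 peaks at chr14:93494407-93497774 had 13 to 16 reads over 3368 bp and the closest pair of summits was 90 bp apart. Runs of 9 peaks also lay at chr16:71130867-71136605 with a median of 16 reads, and at chr1:142611373-142616338 and chr9:66848105-66852946 with medians of 14. Runs of 7 at chr9:92224930-92229617 and chr1:25213029-25217270 had at most 16 reads each. Taller members were present in others of this kind. The run of 8 at chr16:33612497-33616253 had a median of 18.5 reads and reached 25, as did the run of 8 at chr22:42919972-42923619 with a median of 17, and the run of 8 at chr15:20578345-20581687 reached 24. Over all 245 such runs, 42 of 1337 peaks (3.14%) had at least 20 reads and 7 had at least 25, including the peak of 40 reads on chromosome 1 described above.

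Spacing inside runs was short but showed no sharp preferred distance. The 4335 distances between neighbouring summits had a median of 493 bp (quartiles 341 and 687, range 67 to 1000). The upper bound is the rule's. In pairs the median was 551 bp (quartiles 347 and 770). Distances of at most 500 bp made up 51.1% in runs and 43.9% in pairs. In runs of 5 the median was 519.5 bp and in runs of 20 or more 464 bp. The 50 bp bin with most distances in runs was that from 350 to 400 bp, with 8.42%, and the bins on both sides held 8.14% and 8.10%. Between the end of a peak and the start of the next, the shortest stretch was 52 bp in both runs and pairs.

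**Figure D4:**
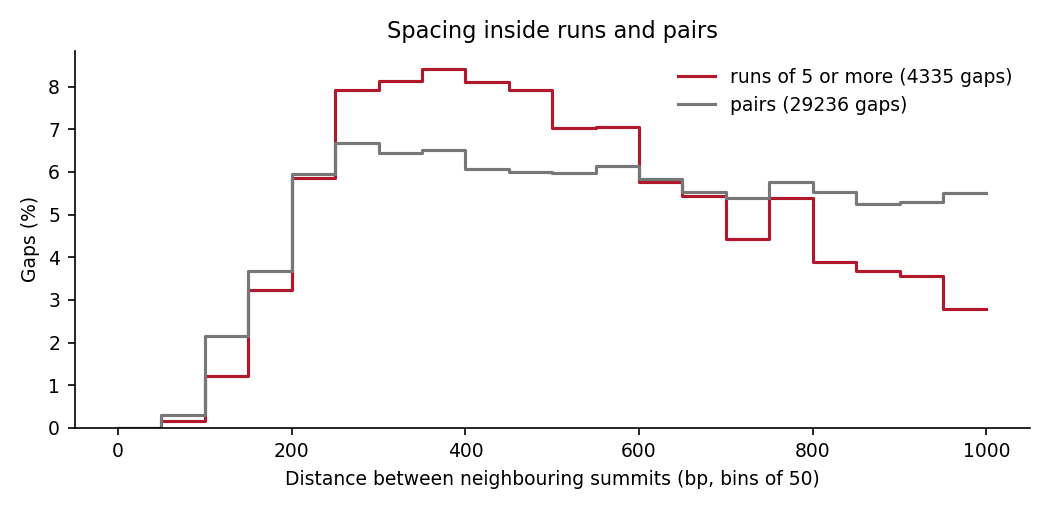
Percent of distances between neighbouring summits per 50 bp bin, in bp, for runs of 5 or more peaks and for pairs. Runs have a broad maximum of 7.9 to 8.4% per bin between 250 and 500 bp and then decline, while pairs stay between 5.25 and 6.7% from 200 to 1000 bp.

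A large part of the runs, though not most, was gathered in few places. The median distance from a run to the nearest other run was 29.2 kb, and 278 runs (45.7%) had another within 10 kb. At the other extreme 152 runs (25%) had none within 1 Mb. In 25 bins of 1 Mb there were at least 5 runs each, and these bins held 261 runs (42.9%) with 2840 peaks, including 24 of the 27 runs of 20 or more. The remaining 347 runs (57.1%) were spread over 258 bins on all 21 chromosomes. Joining runs at most 100 kb apart gave 58 groups of 2 or more, of which 7 had at least 10 runs and together held 154 runs with 1809 peaks. The group with most runs spanned 308 kb of chromosome 16, from 70893777 to 71202053, with 34 runs and 344 peaks, of which 141 were raised. Next came chr6:57226010-57575899 with 28 runs and 296 peaks, of which 157 were raised. A group at chr4:190470134-190680816 had 23 runs and 341 peaks, all raised. From the end of a run to the start of the next, the median stretch within it was 1004 bp. The others lay at chr10:46964859-47142965 with 23 runs, chr1:144863434-145118790 with 22, chr1:16886182-17052587 with 13 and chr8:2197701-2284731 with 11. The raised share in these 7 groups ranged from 35.4% on chromosome 8 to 100% on chromosome 4.

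Runs outside the 25 dense bins were closer to single peaks in height, width and background. There were 347, of which 215 had 5 peaks and 223 lay wholly at the shared background. Their peaks had a median of 15 reads (quartiles 13 and 17), a median width of 115 bp and a raised background in 20.4% (18.6 to 22.1) of cases. In the dense bins these values were 18 reads (15 and 23), 178 bp and 56.9% (55.1 to 58.8). At least 20 reads were reached by 16.02% of run peaks outside the dense bins and 40.5% inside them. Spacing was 524 bp in the median outside and 475 bp inside.

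The surroundings of runs were rich in peaks too. In the 50 kb on each side of a run, without its own members, the median was 34 peaks, against 14 around a single peak (quartiles 8 and 20). For runs outside the dense bins it was 24 (quartiles 18 and 30.5) and for those inside them 92 (68 and 138). A region with many peaks is more likely to form a chain, so these counts are not independent of the rule. Runs also lay more often near an edge of the listed stretches, meaning the first or last peak of a chromosome or either side of a stretch of over 500 kb without peaks. Within 500 kb of such an edge lay 103 runs (16.9%, 14.04 to 20.2), against 1.81% of single peaks. Of these runs, 65 lay in dense bins, so they were not independent of each other and the interval is too narrow. Outside the dense bins the share was 11.0% (7.87 to 14.7). For the 223 runs outside the dense bins with all peaks at the shared background it was 3.59% (1.56 to 6.95).

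Every chromosome examined held runs, in unequal numbers. Chromosome 1 had 104 and chromosome 16 had 76, followed by chromosome 10 with 49 and chromosome 4 with 45, while chromosome 13 had 2 and chromosome 18 had 3. Per Mb between the first and last peak, chromosome 16 came first with 0.842 runs and chromosome 22 next with 0.685, and chromosome 13 was last with 0.0209. Of all peaks on chromosome 16, 5.21% were in runs, against 3.53% on chromosome 4 and 0.136% on chromosome 13. Leaving out the dense bins changed the order. Chromosome 22 then had 0.513 runs per Mb, chromosome 19 had 0.289, chromosome 16 had 0.266, chromosome 17 had 0.246 and chromosome 1 had 0.237. Single peaks were also densest on chromosome 22, at 129 per Mb, and stood at 67.4 per Mb on chromosome 13. On chromosomes 7, 11, 12, 13, 14, 18 and 20 no bin reached 5 runs.

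**Figure D5:**
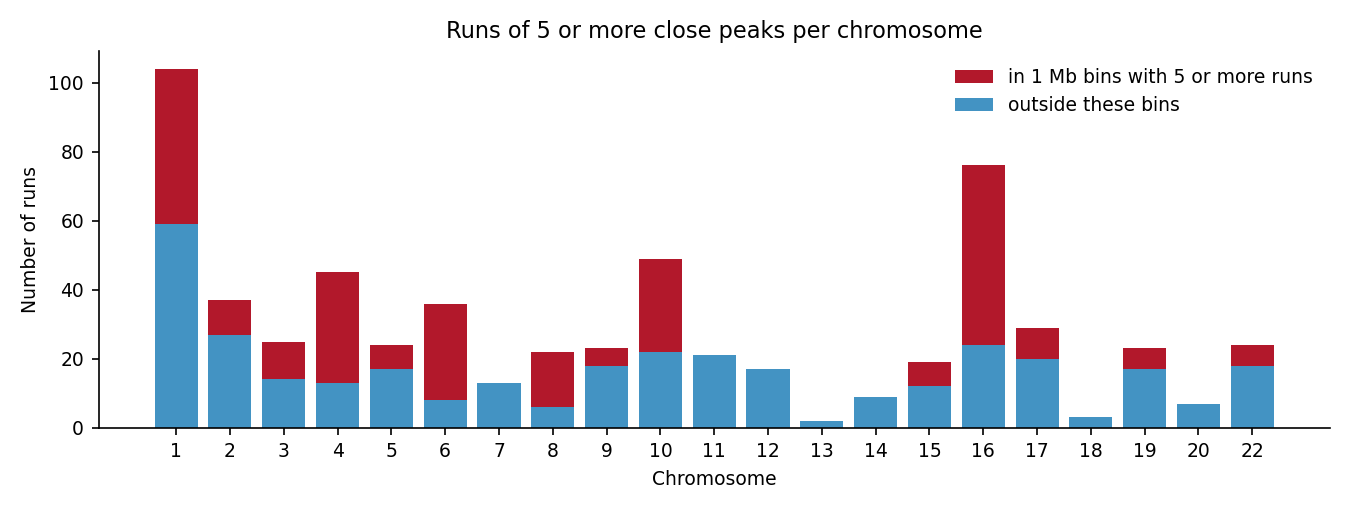
Number of runs of 5 or more close peaks on each chromosome used, split into runs in 1 Mb bins that hold 5 or more runs (red) and the others (blue). On chromosome 16 the dense bins hold 52 of 76 runs and on chromosome 6 they hold 28 of 36, while chromosome 11 has 21 runs and none in such a bin.

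Height, background and size of a run moved together in these data, as did the gathering of runs in the dense bins. The part of the raised background in the height and number of run peaks was not tested. When only peaks at the shared background were chained, there were 332 runs, with a median of 14 reads, equal to that of single peaks. Chaining anew in this way can split or drop runs that hold raised peaks. In the runs as first defined, the 2898 members that were not raised reached 15 reads in the median (quartiles 13 and 17). Of these members, 10.4% had at least 20 reads, against 1.61% of single peaks that were not raised. With at least 31 reads the order was the reverse, as described above.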

How the data were processed

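The tools listed were MACS2 2.1.1.20160309 and Bowtie2 2.2.3, and the build hg19, per the submitters' processing notes. The step each tool performed, and with which settings, is not given in the sources used here. The authors deposited 1 narrowPeak list for the tagged pool. Its deposited columns hold the linear fold ratio, −log10 p and −log10 q of each summit, a score (10 times −log10 q with decimals dropped, in 100% of peaks; not used further), and positions. Summit pileup and background were solved from fold = (pileup + 1)/(background + 1) and the Poisson upper tail of the deposited p-value. The pileup was whole within 0.05 reads for all but 1 peak. A background within 0.005 of 4.29 reads counted as shared.

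Peaks were sorted by summit and chained at distances of at most 1000 bp. A run's 1 Mb bin is that of the midpoint between its first and last summit. Chaining and solving were checked on simulated peaks. Runs named by position are the 15 with most peaks, the 10 of largest span, the 10 with the largest pileup, the 10 with most peaks wholly at the shared background, and the run with most peaks of each chromosome; the text gives a part. The chromosome 1 runs singled out for a peak of 40 reads, and the groups of runs, were named after their values were seen. The limits of 20 and 25 reads, 2 times the median, 50, 100 and 500 kb were chosen with the data known, and the runs and all lists with earlier results of these data known. Analyses used scipy 1.17.1, pandas 2.3.3, numpy 2.4.6 and matplotlib 3.10.9 under Python 3.11.15. No genome of build hg19 was used, so genes, repeats and sequences under the runs were not analysed here. Alternatives changed the distance, the minimum size, the q threshold, the kind of distance, the background and the chromosomes.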

Additional observations from a re-analysis of the deposited data

How the results depend on the processing

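Of 64 values under 11 alternatives, 15 stayed within their interval, or a count within 1.5 times, and 49 moved. All are levels with no direction, so none could reverse one. The values, in the order number of runs, percent of peaks in runs, median spacing, percent of run peaks raised, median pileup and percent of runs in dense bins, were 608, 1.63%, 493 bp, 41.4%, 16 reads and 42.9%, and those that moved follow. At 500 bp there were 111 runs, with 0.221% of peaks, 345 bp and 60.6% raised. At 2000 bp there were 2548 runs, with 5.94% of peaks, 769 bp, 16.5% raised and 14 reads. A minimum of 4 peaks gave 1653 runs, 3.02%, 507 bp, 25.9% raised, 15 reads and 31.7% in dense bins. A minimum of 10 peaks gave 130 runs, 0.706%, 468 bp, 65.5% raised, 19 reads and 63.1%. At q of at most 0.05 the values were 1.51% of peaks, 504 bp, 44.0% raised and 47.8% in dense bins. At q of at most 0.01 they were 168 runs, 2.08%, 547 bp, 75.5% raised, 23 reads and 66.1%. Measured from the end of a peak to the start of the next, they were 2.01%, 523 bp, 38.7% raised and 30.7%. Only peaks at the shared background gave 332 runs, 0.655%, 531 bp, 14 reads and 14.2%. All 22 autosomes gave 1238 runs, 2.996%, 32.3% raised and 72.0% in dense bins. Without the dense bins, chosen after the data were seen, there were 347 runs, with 0.695% of peaks, 524 bp, 20.4% raised and 15 reads. The raised share thus depended on the distance, the minimum size and the q threshold, between 16.5% and 75.5%. Under each alternative but the one that keeps no raised peak, it was above 2.73%, the share of single peaks at the main setting. The share of single peaks was not computed again under the alternatives, so the contrast with single peaks was not tested there. Leaving out peaks with a background of at least 20 reads, also added later, moved none of the 6 values. Wider distances, smaller minimum sizes and chromosome 21 admit more runs by construction; the cause of the other shifts was not tested. No replicate could be left out, and no paired analysis was possible because each arm is 1 pool. Pileups near 12 reads limit the precision of low peaks, where 1 read changes the fold by 0.189.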

Other observations

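Chromosome 21 and the sex chromosomes lie outside the rule. Chained in the same way, chromosome 21 alone held 630 runs, more than the 608 of the other autosomes together, and 34.4% of its 13103 peaks were in them. Its runs had a median pileup of 15 reads and 22.3% of their peaks had a raised background, against 16 reads and 41.4% in the runs described above. The longest, of 42 peaks, was at chr21:10784985-10804410. Chromosome X, with 130 peaks, held 0 runs. Chromosome Y, with 152 peaks, held 8 runs with 91 peaks (59.9%), which had a median of 24 reads and a raised background in 87.9% of cases. Whether the reads placed on chromosome Y came from that chromosome was not tested.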
